A study of Mus musculus with 18 samples.

Results

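The oxygen-sensing machinery of the hypoxia-inducible factors (HIFs) was followed through its 8 genes, Hif1a, Epas1, Arnt, Vhl, Egln1, Egln2, Egln3 and Hif1an. They were taken by symbol from a table of 16909 genes, and all 8 were present. The cells were macrophages from mouse bone marrow, and their poly(A) RNA had been sequenced in 18 libraries of 4 groups. Con (n = 3 libraries) was the mock group and LPS (n = 5) the positive control for inflammation, treated with lipopolysaccharide, a bacterial membrane component that activates macrophages through Toll-like receptor 4. STSABs and UVABs (n = 5 each) received apoptotic bodies (ABs) of hucMSCs, made with STS or with UV, as anti-inflammatory treatments. Apoptotic bodies are membrane-bound fragments of dying cells. The labels used here do not say whether the AB groups also received LPS, nor give the mouse strain, dose or time. They also do not say whether replicates were separate cultures or animals, so the tests measure the spread between libraries, which may be technical.

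HIF is a dimer of an oxygen-labile α subunit, HIF-1α (Hif1a) or HIF-2α (Epas1), and a stable β subunit (Arnt). When oxygen is present, prolyl hydroxylases (Egln1 to Egln3, also called PHD2, PHD1 and PHD3) mark the α subunit, the product of Vhl binds the marked protein within a ubiquitin ligase, and the proteasome destroys it. Hif1an encodes FIH, an asparaginyl hydroxylase that blocks the binding of coactivators. Egln1 and Egln3 are themselves classic targets of HIF, which gives the pathway a feedback loop, and in macrophages LPS is known to raise Hif1a through NF-κB at normal oxygen. Most of this control acts on protein, and the libraries measured RNA only.

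HIF binds short elements whose core reads ACGTG or GCGTG, and the 250 bases before the start of each gene were searched for these letters on both strands. RefSeq's promoter table (GRCm38.p6, an older build than the mm39 named in the submitters' processing notes) had an entry for 7 of the 8 genes, all but Epas1. The windows of the hydroxylase genes Egln1 and Egln3 are shown because their transcripts differed most from LPS in the AB groups. Those of Hif1a and Vhl are shown for comparison. Motif letters are in capitals and all else in lower case, each printed 5′ to 3′ along the gene.
Egln1, chr8:124949255-124949504, minus strand: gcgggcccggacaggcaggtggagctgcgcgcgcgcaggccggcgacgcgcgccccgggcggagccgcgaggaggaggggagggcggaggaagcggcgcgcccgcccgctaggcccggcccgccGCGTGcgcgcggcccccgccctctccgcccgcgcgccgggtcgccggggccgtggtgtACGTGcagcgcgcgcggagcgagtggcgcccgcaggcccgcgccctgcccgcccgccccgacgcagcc
Egln3, chr12:54203875-54204124, minus strand: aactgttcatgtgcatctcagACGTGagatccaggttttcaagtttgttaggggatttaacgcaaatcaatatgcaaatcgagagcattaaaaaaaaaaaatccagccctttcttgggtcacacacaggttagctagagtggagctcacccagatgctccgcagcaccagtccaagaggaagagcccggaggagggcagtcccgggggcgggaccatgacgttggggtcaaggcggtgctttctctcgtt
Hif1a, chr12:73907617-73907866, plus strand: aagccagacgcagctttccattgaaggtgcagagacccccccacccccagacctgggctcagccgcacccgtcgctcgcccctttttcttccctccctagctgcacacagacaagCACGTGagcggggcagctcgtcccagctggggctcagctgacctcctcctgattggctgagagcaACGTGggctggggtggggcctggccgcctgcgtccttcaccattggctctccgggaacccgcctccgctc
Vhl, chr6:113623744-113623993, plus strand: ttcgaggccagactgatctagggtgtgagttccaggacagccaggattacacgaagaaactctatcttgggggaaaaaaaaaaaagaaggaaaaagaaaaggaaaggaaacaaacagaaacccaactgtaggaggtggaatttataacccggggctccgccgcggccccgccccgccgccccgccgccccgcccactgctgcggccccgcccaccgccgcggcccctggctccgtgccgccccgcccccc

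In the Egln1 window GCGTG lay 126 bases and ACGTG 68 bases before the start. The Egln3 window held ACGTG at 229 bases. The Hif1a window held ACGTG at 70 and 134 bases and, on the other strand, at 135 bases. The latter pair overlap in the palindrome CACGTG, which holds ACGTG on both strands. Egln2, with 2 annotated starts, had 5 matches over its windows, Arnt had GCGTG at 29 bases, and the windows of Vhl and Hif1an had none. Of 32851 promoter windows of the same length, 38.6% held at least 1 of these motifs, 16.6% ACGTG and 28.2% GCGTG, so a match by itself is common. A match is a description of these letters, not a binding site.

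The libraries held 17588400 to 18675300 counts each. Levels are given as CPM, the count of a gene relative to its library's total, scaled by TMM, which assumes that most genes keep their level between groups. TMM scaled Con apart from the rest, with factors of 1.51 to 1.52 against 0.895 to 0.939 in the other groups. Every value against Con therefore depends on the scaling, and where another scaling turns its direction this is said beside it. With library totals in place of TMM, the median log2 change of all genes in LPS against Con moved by -0.74, from -0.03 to -0.78, and with upper-quartile scaling by -0.28, to -0.31. Calls are by edgeR's quasi-likelihood test at a Benjamini-Hochberg adjusted p of 0.05 over 12465 genes, and errors of log2 fold changes are standard errors. All 8 genes passed the filter on low counts, Epas1 through the Con and LPS libraries alone. The first principal component (76.4% of the variance) set Con apart, and replicate 2 of both AB groups stood apart from its group on the next 2 components. All 10 macrophage markers were in the table and had counts in every group, with summed levels of 9882 to 13770 CPM. Cd163, a marker of alternatively activated macrophages, was scarce even in the mock group, with a mean of 1.57 CPM. It had 37 to 49 counts a library there and 0 to 4 in the other groups. Mrc1, another such marker, stayed well detected, with means of 284 CPM for Con libraries, 123 under LPS, 154 with STSABs and 158 with UVABs. Markers of neutrophils were also present, and their sum was 1185 to 1481 CPM in Con, 1812 to 2524 under LPS, 3251 to 4711 with STSABs and 3181 to 4204 with UVABs. Of these 8 markers, 6 were called higher and 1 lower in LPS against Con with TMM, but 1 and 2 with library totals. Among all genes 40.0% were higher and 43.0% lower there with TMM.

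Both oxygen-regulated prolyl hydroxylase genes were low in LPS and high with ABs. Egln1, the main hydroxylase of HIF-1α in most cells, was at 56.4, 61.7 and 58.7 CPM in the 3 Con libraries. It was at 16.9, 22.5, 22.7, 18 and 20 CPM in LPS. The STSABs libraries had 84.4, 81.1, 76.3, 74.4 and 72.1 CPM and the UVABs libraries 79.2, 81.2, 80.5, 71.7 and 72.1. Every LPS library lay below every library of the other 3 groups, and the AB groups overlapped each other. Egln1 fell 2.94-fold in LPS against Con (log2 fold change -1.56 ± 0.08, edgeR adjusted p = 4.64e-14). It rose 3.88-fold in STSABs against LPS (1.96 ± 0.07, edgeR adjusted p = 2.74e-14) and 3.84-fold in UVABs against LPS (1.94 ± 0.07, edgeR adjusted p = 3.18e-14). These comparisons share the LPS libraries, so they are not independent of each other.

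Egln3, the family member best known as strongly hypoxia-inducible, was also lowest in LPS. Its level was 35.0, 46.8 and 36.1 CPM in Con and 13.8, 18.9, 17.1, 13.2 and 22.3 CPM in LPS. With STSABs it reached 97.4, 112, 83.1, 68.6 and 81.1 CPM, and with UVABs 90.2, 86.6, 89.6, 66.0 and 83.9 CPM. The LPS libraries were again the lowest without overlap, and the AB libraries lay above all Con libraries on this scale. Egln3 fell 2.30-fold in LPS against Con (-1.20 ± 0.16 on the log2 scale, edgeR adjusted p = 3.64e-07). It rose 5.19-fold in STSABs (2.37 ± 0.14, edgeR adjusted p = 1.74e-11) and 4.88-fold in UVABs (2.29 ± 0.14, edgeR adjusted p = 3.11e-11) against LPS. Neither gene's call against LPS or in LPS against Con was lost under any alternative run. Without replicate 2 of both AB groups, the log2 rises against LPS were 1.94 and 1.92 for Egln1 and 2.28 and 2.27 for Egln3. All 8 neutrophil markers also rose in both AB groups against LPS, where 28.4% (STSABs) and 28.6% (UVABs) of all genes were higher. In each, 3 of 4 tested dendritic markers were higher and 0 lower. Of 4 tested mast and basophil markers 3 were higher and 1 lower, and of 4 tested T and NK markers 0 were called. The part of such cells in the values of Egln1 and Egln3 was not tested. In bulk RNA, more cells of a type and more RNA per cell cannot be told apart.

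Egln2, which unlike Egln1 and Egln3 is not a classic HIF target, was not lowest in LPS. Con libraries were at 28.2, 29.2 and 32.3 CPM and LPS libraries at 53.4, 62.3, 61.3, 65.1 and 55.9 CPM. The STSABs libraries had 55.1, 66.7, 55.8, 49.1 and 51.1 CPM and the UVABs libraries 52.2, 63.3, 59.2, 47.9 and 54.0. Con was below all others, and LPS and both AB groups overlapped. Egln2 rose in LPS against Con (log2 fold change 0.99 ± 0.10, edgeR adjusted p = 3.61e-09), and by only 0.25 with library totals, where the groups overlapped. Against LPS it was not called in STSABs (-0.10 ± 0.08, edgeR adjusted p = 0.303) or in UVABs (-0.11 ± 0.08, edgeR adjusted p = 0.274). Without replicate 2 of both AB groups it was called lower against LPS, by -0.17 (edgeR adjusted p = 0.023) in STSABs and -0.16 (edgeR adjusted p = 0.0354) in UVABs.

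**Figure D1:**
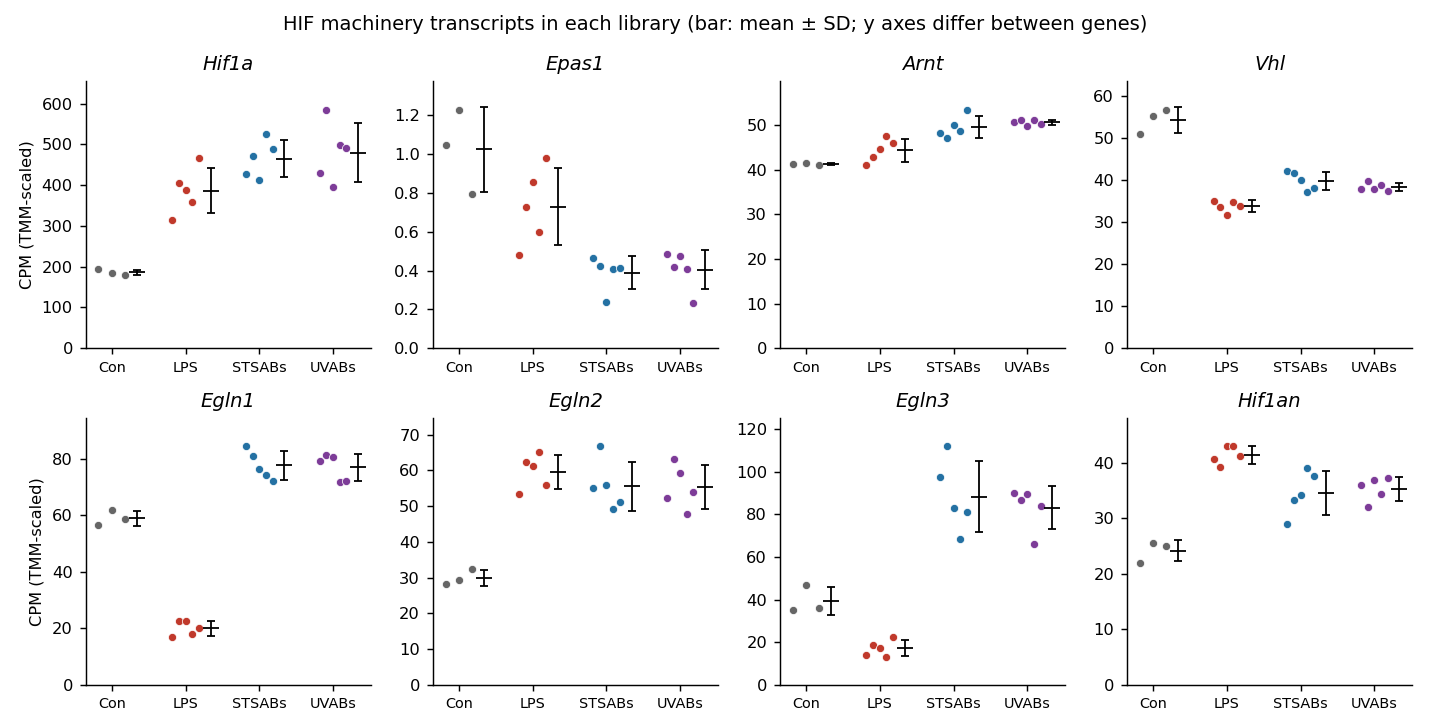
TMM-scaled CPM of the 8 genes (y axis, from 0, own scale per gene) in each library of the 4 groups (points), with the mean ± SD beside them. Egln1 in LPS lies at 16.9 to 22.7 CPM, below all other libraries, and Egln3 reaches 66.0 to 112 CPM in the AB groups.

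The makeup of the prolyl hydroxylase transcripts can be read within a library and needs no scaling between libraries. Per length of merged exons, Egln2 made up 30.4% ± 2.67 (SD, n = 3) of the 3 transcripts in Con and 69.3% ± 3.82 (n = 5) in LPS. It took 31.5% ± 1.27 in STSABs and 32.3% ± 1.62 in UVABs. Egln1 was 36.7% ± 0.941 of the sum in Con, 14.3% ± 1.14 under LPS, 27.2% ± 2.27 with STSABs and 27.6% ± 1.42 with UVABs. Egln3 went from 32.9% ± 3.29 in Con to 16.4% ± 3.21 in LPS, and was the largest share in STSABs (41.3% ± 2.66) and UVABs (40.1% ± 2.10). The LPS libraries stood apart from the other groups in all 3 shares, and the AB libraries had a lower share of Egln1 and a higher share of Egln3 than every Con library. No test was run on these shares. Counts of Egln3 per 100 counts of Egln1 were 66.4 ± 8.10 in Con, 85.2 ± 15.4 under LPS, 114 ± 16.6 with STSABs and 108 ± 9.65 with UVABs.

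**Figure D2:**
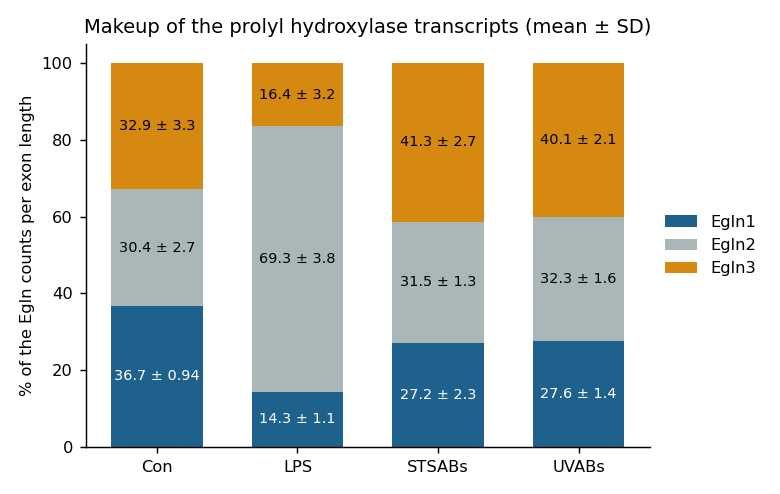
Share of Egln1, Egln2 and Egln3 in their summed counts per exon length (y axis, percent) for each group, as the mean over libraries with its SD printed in the bar. Egln2 takes 69.3% in LPS and 30.4% to 32.3% in the other groups.

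The transcript of Hif1a, whose protein is a substrate of the prolyl hydroxylases, rose in every treated group. Hif1a was at 193, 184 and 180 CPM in Con and 315, 405, 389, 358 and 466 CPM in LPS. STSABs libraries had 426, 471, 413, 526 and 489 CPM and UVABs libraries 430, 585, 395, 499 and 490 CPM. All 15 treated libraries lay above Con on the TMM scale, while LPS overlapped each AB group. Hif1a rose in LPS against Con by 1.06 ± 0.12 on the log2 scale (edgeR adjusted p = 2.65e-08), and by 0.31 with library totals, where the groups overlapped. Against LPS its rise was small in STSABs (0.27 ± 0.10, edgeR adjusted p = 0.0242) and in UVABs (0.31 ± 0.10, edgeR adjusted p = 0.0094). The call in STSABs was lost when any of LPS replicates 1 or 4 (0.20 and 0.24) or STSABs replicates 4 or 5 (0.22 and 0.25) was left out.

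Epas1, the other α subunit, was scarcely detected. Its mean was 1.02 ± 0.217 CPM for Con, 0.729 ± 0.200 for LPS, 0.390 ± 0.0867 for STSABs and 0.404 ± 0.101 for UVABs, resting on 22 to 34, 8 to 16, 4 to 8 and 4 to 8 counts a library. Per kilobase of exon, Hif1a stood at 34.1 CPM and Epas1 at 0.186 CPM in Con, and at 85.3 and 0.0707 CPM in STSABs. Epas1 was not called in LPS against Con (-0.49 ± 0.23, edgeR adjusted p = 0.0588). It was called lower there with upper-quartile scaling (-0.77), with library totals (-1.23), and without Con replicate 3 (-0.64), LPS replicate 3 (-0.56) or LPS replicate 5 (-0.62). Against LPS its fitted values were -0.89 ± 0.27 in STSABs (edgeR adjusted p = 0.00836) and -0.84 ± 0.27 in UVABs (edgeR adjusted p = 0.0116). No AB library reached the count that the filter asks for, so Epas1 was tested only because it was higher in Con and LPS, and these values are given as a description. With replicates 1 to 3 only, neither was called (-0.85 and -0.57), nor was that in UVABs without LPS replicate 5 (-0.71).

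Arnt, the shared β subunit, had similar levels in all groups on the TMM scale. Library totals set Con higher, at 62.3 CPM against 40.1 to 47.0 in the other groups. Con libraries had 41.2, 41.5 and 41.0 CPM, and the mean was 44.4 ± 2.55 CPM for LPS, 49.5 ± 2.42 for STSABs and 50.7 ± 0.562 for UVABs. Arnt was not called in LPS against Con (0.11 ± 0.05, edgeR adjusted p = 0.0684), and was called higher without LPS replicate 1 (0.13) and with DESeq2 (0.13). It was lower there with upper-quartile scaling (-0.17) and library totals (-0.64). It rose slightly in STSABs (0.16 ± 0.05, edgeR adjusted p = 0.00699) and in UVABs (0.19 ± 0.05, edgeR adjusted p = 0.00164) against LPS.

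Vhl, which encodes the substrate receptor that recognises hydroxylated HIF-α, had its highest level in Con. The Con libraries were at 50.9, 55.4 and 56.8 CPM and the LPS libraries at 35.1, 33.7, 31.6, 34.9 and 33.8 CPM. STSABs libraries had 42.3, 41.6, 40.0, 37.2 and 38.2 CPM, and UVABs libraries 38.0, 39.9, 38.0, 38.8 and 37.4. The AB libraries lay between LPS and Con without overlap with either. Vhl fell in LPS against Con (-0.68 ± 0.06, edgeR adjusted p = 1.30e-10). It rose in STSABs (0.24 ± 0.05, edgeR adjusted p = 0.000403) and UVABs (0.18 ± 0.05, edgeR adjusted p = 0.00398) against LPS, and stayed lower than Con in both (-0.45 ± 0.06 and -0.50 ± 0.06, edgeR adjusted p = 1.34e-07 and 2.28e-08).

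The other subunits of the Vhl ubiquitin ligase, named here for their role after their values were seen, rose with TMM scaling in LPS against Con, where Vhl fell. The adaptor genes Elob and Eloc rose by 0.52 ± 0.09 and 1.44 ± 0.13 on the log2 scale, the scaffold Cul2 by 1.27 ± 0.06 and the RING subunit Rbx1 by 0.69 ± 0.06 (edgeR adjusted p = 2.30e-05 for Elob, the highest of the 4). With library totals Elob was lower (-0.22) and Rbx1 not called (-0.056), while Eloc (0.69) and Cul2 (0.52) stayed higher. Of these 4, STSABs against LPS called Cul2 alone, at -0.16 ± 0.05 (edgeR adjusted p = 0.0119), and not with library totals (-0.12). Elob (0.12), Eloc (-0.12) and Rbx1 (-0.10) were not.

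Hif1an, the asparaginyl hydroxylase gene, was at 22.0, 25.5 and 25.1 CPM in Con and 40.8, 39.2, 43.0, 43.0 and 41.3 CPM in LPS. It was at 29.0, 33.3, 34.2, 39.1 and 37.7 CPM in STSABs and 36, 32.0, 36.9, 34.4 and 37.3 CPM in UVABs. On the TMM scale the LPS libraries lay above all others and Con below all others, but with library totals LPS overlapped STSABs and Con. Hif1an rose in LPS against Con by 0.78 ± 0.08 (edgeR adjusted p = 9.77e-09), but by 0.032 and without a call when library totals were used. It was lower against LPS in STSABs (-0.26 ± 0.07, edgeR adjusted p = 0.00328) and in UVABs (-0.23 ± 0.07, edgeR adjusted p = 0.00723). In these comparisons its values had the opposite sign to those of Vhl, Egln1 and Egln3.

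**Figure D3:**
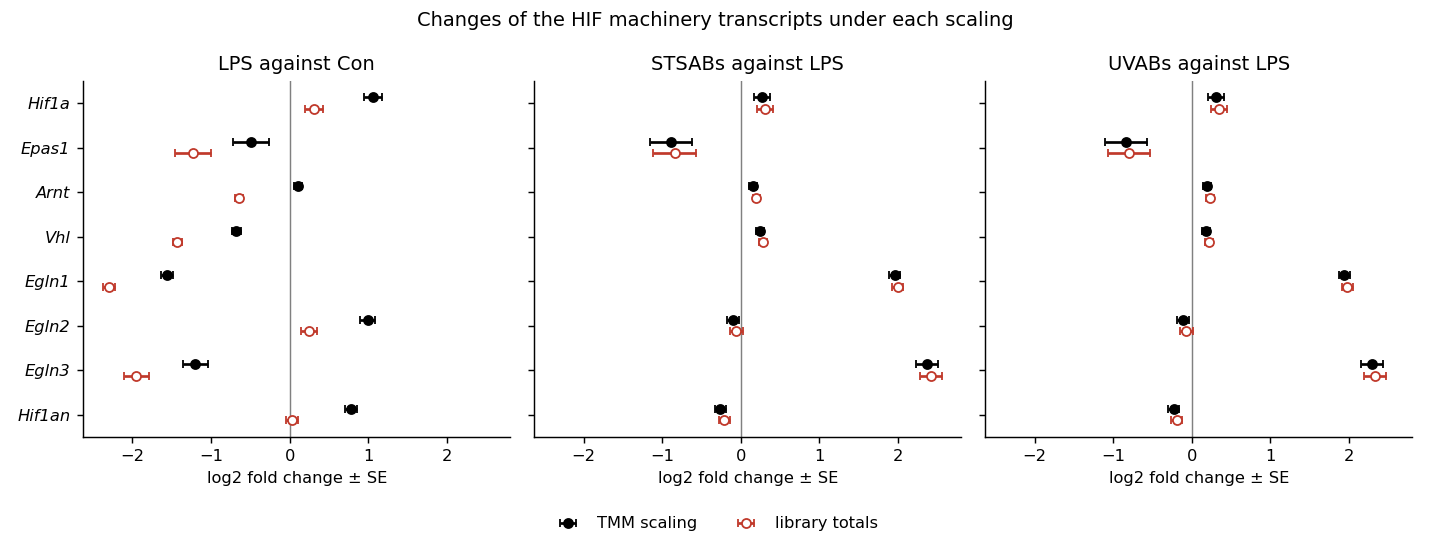
Log2 fold change ± SE (x axis) of each gene in LPS against Con, STSABs against LPS and UVABs against LPS, with TMM scaling (filled) and with library totals (open). Egln1 and Egln3 lie at -1.56 and -1.20 in LPS against Con and at 1.96 and 2.37 in STSABs against LPS, and the scalings part only in the comparison with Con.

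Counted over the 8 genes, LPS against Con called 3 higher (Hif1a, Egln2, Hif1an) and 3 lower (Egln1, Egln3, Vhl), where 83.0% of all genes tested were called, 40.0% higher and 43.0% lower. The counts against LPS leave out Epas1, for the reason given above. In STSABs against LPS 5 of the other 7 genes were higher (Hif1a, Arnt, Vhl, Egln1, Egln3) and 1 lower (Hif1an), where 57.4% of all genes were called, 28.4% higher and 29.0% lower. UVABs against LPS gave the same genes in each direction, where 57.4% of all genes were called, 28.6% higher and 28.8% lower. Groups did not overlap for 6 of the 8 genes in LPS against Con (80.0% of all genes), and for 4 of 7 in STSABs against LPS (42.5%) and 5 of 7 in UVABs against LPS (42.3%). In LPS against Con the share of these genes called is near that of all genes. No test of any such share was made.

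No difference between STSABs and UVABs was called in these genes. In UVABs against STSABs edgeR called 0 of the 8, with 0.0% of all genes called, the groups overlapped in all 8 (0.345% of all genes did not overlap), and 0 of the 8 had an unadjusted p under 0.05 by edgeR, DESeq2 or limma-voom. Over all genes 198 had an unadjusted p under 0.05 by edgeR, and 324 without STSABs replicate 2. A fit of the AB groups alone, with the replicate number as a block, gave 457, and 0 were called in each. Each of these counts is below the share of 0.05 of genes that such a p marks by chance. The tests and intervals of this comparison may therefore be conservative, and the reason was not tested. The log2 difference was -0.014 for Egln1 (95% interval -0.16 to 0.13, from the SE with 14 residual degrees of freedom) and -0.089 for Egln3 (-0.36 to 0.18). It was 0.046 for Hif1a (-0.16 to 0.26), -0.054 for Vhl (-0.16 to 0.05) and 0.032 for Arnt (-0.07 to 0.13). The intervals were -0.18 to 0.17 for Egln2 and -0.12 to 0.18 for Hif1an, and wide for Epas1, -0.61 to 0.71. A miss of the threshold does not show that the preparations act alike.

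Against the mock group, the 7 genes other than Epas1 were all called in both AB groups with TMM, 6 higher and 1 (Vhl) lower, without overlap. With library totals 2 were higher and 4 lower in STSABs, and 2 and 3 in UVABs. In STSABs against Con 82.6% of all genes were called, 40.0% higher and 42.6% lower, and 77.6% did not overlap. In UVABs against Con 82.6% were called, 40.2% higher and 42.4% lower, and 77.7% did not overlap. Hif1a rose by 1.32 ± 0.12 in STSABs and 1.37 ± 0.12 in UVABs, Egln3 by 1.17 ± 0.15 and 1.08 ± 0.15, and Egln2 by 0.89 ± 0.10 in each. The fitted values of Epas1 were -1.38 ± 0.26 and -1.33 ± 0.26. Egln1 was above Con with TMM (0.40 ± 0.08 and 0.38 ± 0.08) and below it with library totals (-0.30 and -0.32). Hif1an (0.52 and 0.55 with TMM, -0.18 and -0.16 with library totals) and Arnt (0.26 and 0.30 with TMM, -0.43 and -0.41) also turned, so the direction of these 3 genes against Con is that of the scaling. Egln2 stayed above Con but lost its call with library totals (0.20 and 0.18). Hif1a, Egln3 and Vhl kept direction and call under every scaling run. With library totals, though, Egln3 was above Con by only 0.47 in STSABs and 0.38 in UVABs, and both groups overlapped Con.

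Ratios to Hif1a within a library are free of this scaling. Egln1 had 31.8 ± 2.30 counts (SD, n = 3) per 100 of Hif1a in Con, 5.22 ± 0.597 (n = 5) under LPS, 16.9 ± 2.41 with STSABs and 16.3 ± 2.88 with UVABs. The 4 groups ran from 29.2 to 33.5, 4.30 to 5.85, 14.2 to 19.8 and 13.9 to 20.4, so that the AB groups lay between LPS and Con. Egln3 had 21.2 ± 3.78 counts per 100 of Hif1a in Con, 4.39 ± 0.429 under LPS, 19.3 ± 4.5 with STSABs and 17.8 ± 4.0 with UVABs. Here the AB libraries overlapped Con, and no LPS library exceeded 4.80. Vhl had 29.4 ± 2.70 per 100 of Hif1a in Con and 8.93 ± 1.54, 8.67 ± 1.22 and 8.13 ± 1.09 in LPS, STSABs and UVABs. For Vhl the 3 treated groups overlapped, far below Con. No test was run on these ratios.

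**Figure D4:**
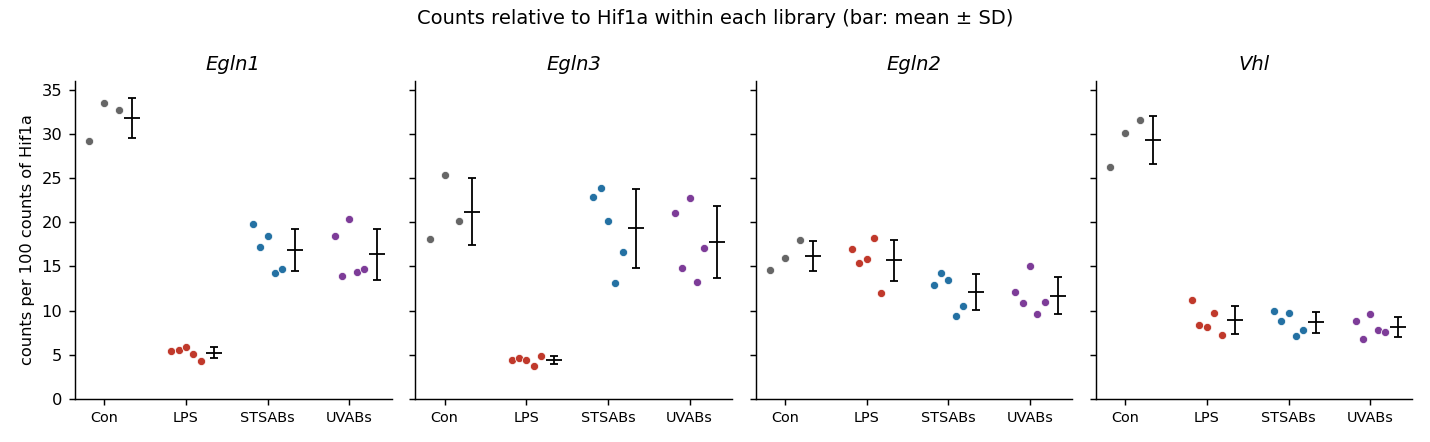
Counts of Egln1, Egln3, Egln2 and Vhl per 100 counts of Hif1a in the same library (y axis, from 0), by group, with the mean ± SD. Egln1 and Egln3 are at 5.22 and 4.39 in LPS and at 16.9 and 19.3 in STSABs, while Vhl stays at 8.13 to 8.93 in all 3 treated groups.

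The genes whose levels ran most like each of these over the 18 libraries are given as a description, since the libraries share groups and scaling. For Egln3 they were Ero1a (Pearson's r = 0.986), Bnip3 (0.986) and Gys1 (0.985), which are themselves HIF targets on the lists below, and with group means removed r was 0.790, 0.733 and 0.728. Egln1 ran most like Dennd1c (0.986), Bnip3l (0.984) and the histone demethylase gene Kdm5b (0.982), with 0.691, 0.154 and -0.021 within groups. Its likeness to Bnip3l and Kdm5b thus lay in the group means. For Egln1 and Egln3 with each other r was 0.96, and 0.68 within groups. The nearest to Hif1a were Cacna1d (0.979), Ctsc and Alas1 (0.971 each), and to Vhl Cd99l2 (0.982), Bin2 (0.976) and Epb41 (0.974). Those nearest to Egln2 were Dcakd (0.983), Tnfrsf1a (0.973) and Arhgdia (0.972), and to Hif1an Kmt2d (0.962), Ep400 and Phlpp2 (0.957 each). Arnt ran most like Prkce (0.942), Uhrf1bp1l (0.926) and Stx2 (0.925), and Epas1 most like Ddx56 (0.923), Srpk1 (0.915) and Ndor1 (0.905).

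The targets of HIF were read from 2 lists, chosen with earlier results of these data known. Their counts and shares are therefore given as a description. Of 26 tested targets in glucose uptake and glycolysis, 22 were higher and 2 lower in STSABs against LPS (median log2 fold change 0.53, all genes -0.01), and 23 and 2 in UVABs against LPS (median 0.58, all genes 0.00). In STSABs 92.3% and in UVABs 96.2% of the list was called, against 57.4% of all genes in each. Gys1, glycogen synthase, stood at 16.7 CPM under LPS and rose to 99.7 with STSABs (log2 2.57 ± 0.07, edgeR adjusted p = 1.19e-16). Tpi1, a glycolytic isomerase, rose by 1.47 ± 0.06, and Pdk1, a kinase that inactivates pyruvate dehydrogenase, by 1.59 ± 0.07. In LPS against Con these 3 had all been lower, Gys1 by -1.47 ± 0.08, Tpi1 by -0.46 ± 0.07 and Pdk1 by -1.70 ± 0.07. The list as a whole was mixed there, with 14 higher and 8 lower with TMM but 5 and 18 with library totals. With TMM 84.6% of the list was called, near the 83.0% of all genes. Of the calls of all genes, 48.2% were higher with TMM and 21.2% with library totals. Pfkfb3 and Pfkp, regulators of glycolytic flux, were higher in LPS by 2.76 ± 0.11 and 1.54 ± 0.07, and in STSABs against LPS were at 0.19 ± 0.08, not called, and 0.19 ± 0.05. Pfkfb3 was called higher there with upper-quartile scaling (0.20) and library totals (0.24).

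Of 42 other HIF targets tested, 29 were higher and 3 lower in STSABs against LPS (median 0.67, all genes -0.01), and 30 and 3 in UVABs (median 0.65). In STSABs 76.2% and in UVABs 78.6% of the list was called, against 57.4% of all genes in each. Bnip3, a mitophagy receptor, stood at 24.9 CPM under LPS and rose to 136 with STSABs (2.45 ± 0.10, edgeR adjusted p = 8.50e-14) and was at 51.0 CPM in Con. Its relative Bnip3l rose by 0.81 ± 0.04 and Mxi1, an antagonist of Myc, by 1.66 ± 0.09. In LPS against Con the list split into 16 higher and 16 lower with TMM and 12 and 25 with library totals. With TMM these calls were 76.2% of the list, below the 83.0% of all genes. Calls of all genes there also moved towards lower with library totals, from 48.2% to 21.2% higher. Nos2, the inducible nitric oxide synthase, rose by 11.62 ± 0.26, from 0.843 to 2677 CPM, and was not called between STSABs and LPS (0.15 ± 0.12). Tfrc, the transferrin receptor, fell by 2.76 on the log2 scale and was not called between STSABs and LPS (-0.07 ± 0.10). Narf also fell by 2.76 and rose by 1.30 ± 0.08 in STSABs against LPS. Of these, Gys1, Tpi1, Pdk1, Bnip3, Bnip3l and Narf thus had the signs of Egln1 and Egln3 in LPS against Con and in STSABs against LPS.

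Of 20 tested regulators and cofactors of HIF, 12 were higher and 5 lower in LPS against Con (median 0.39, all genes -0.03), but 5 and 12 with library totals. These 17 are 85.0% of the list, near the 83.0% of all genes. In STSABs against LPS 5 were higher and 4 lower (median -0.03), or 45.0% called against 57.4% of all genes. In UVABs against LPS it was 5 and 6, or 55.0% against 57.4%. Cited2, which competes with HIF for the coactivators p300 and CBP, rose by 1.53 ± 0.07 in LPS against Con and by a further 0.36 ± 0.06 in STSABs against LPS. Hsp90aa1, a chaperone of HIF-1α, rose by 0.90 ± 0.07 and was lower by -0.50 ± 0.06 in STSABs against LPS. Rack1, which promotes oxygen-independent decay of HIF-1α, was lower by -0.16 ± 0.07 and rose by 0.37 ± 0.06.

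Among 23 other 2-oxoglutarate oxygenases, the enzyme class of the Egln proteins, 10 were higher and 10 lower in LPS against Con, and 9 and 6 in STSABs against LPS (median 0.07). The shares called, 87.0% and 65.2%, are near the 83.0% and 57.4% of all genes. Kdm5b had the signs of Egln1, with -1.18 ± 0.07 and then 1.35 ± 0.06, as had Asph, with -0.55 ± 0.06 and 0.67 ± 0.06. Kdm5c and Riox2 had those of Hif1an, with 1.75 ± 0.07 and 2.75 ± 0.09 in LPS against Con and -0.36 ± 0.06 and -0.41 ± 0.07 in STSABs against LPS. Kdm4a was higher in both comparisons (2.46 ± 0.07 and 0.34 ± 0.06), and Alkbh5, an RNA demethylase, was at 0.02 ± 0.06, not called, and 0.56 ± 0.05. With upper-quartile scaling Alkbh5 was lower in LPS against Con (-0.25).

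Of 16 genes of NF-κB and metabolic inputs to HIF-1α, 12 were higher and 1 lower in LPS against Con (median 1.45, all genes -0.03), with 10 and 6 by library totals. With TMM 81.2% of the list was called, against 83.0% of all genes. Nfkb1 rose by 2.72 ± 0.05, Stat3 by 2.87 ± 0.06, and Acod1, which makes itaconate, by 7.09 ± 0.09. In STSABs against LPS 0 were higher and 5 lower (31.2% called), among them Acod1 (-0.68 ± 0.05), Nfkb1 (-0.34 ± 0.04) and Ikbkg (-0.47 ± 0.05), while Stat3 was not called (-0.08 ± 0.04). The same numbers, 0 and 5, held in UVABs against LPS, and in each of these comparisons 57.4% of all genes were called. In UVABs against STSABs 0 genes of any of the 5 lists were called.

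**Figure D5:**
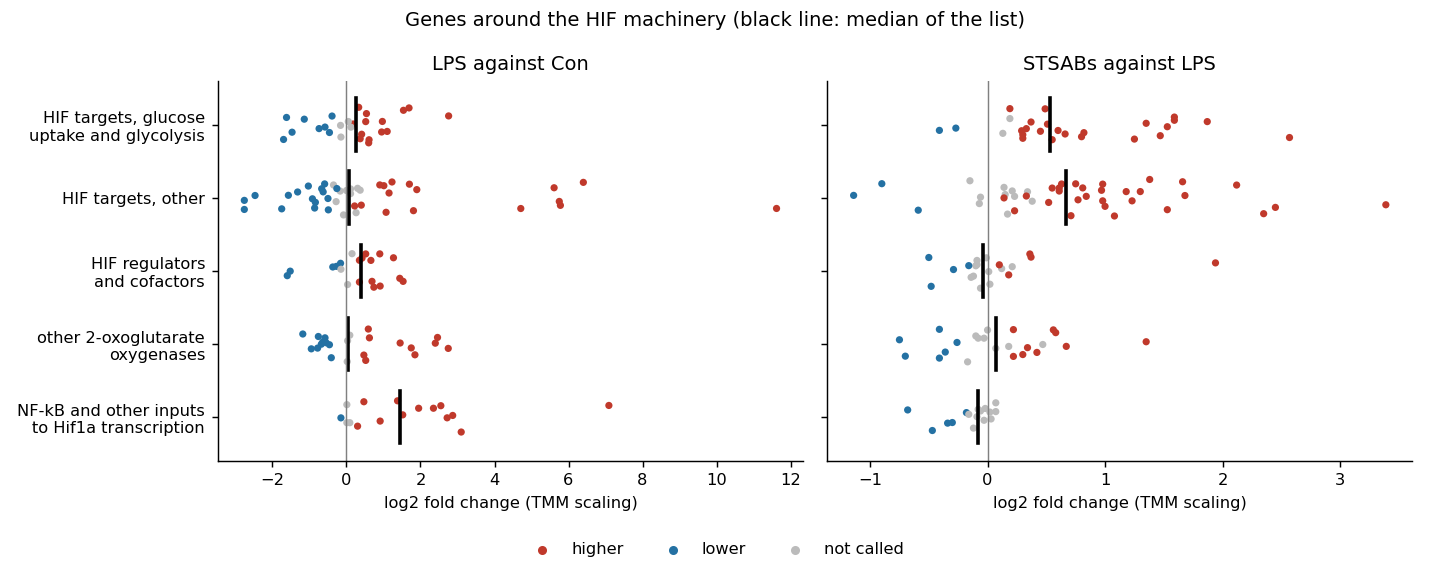
Log2 fold change (x axis, TMM scaling) of every tested gene of the 5 lists in LPS against Con and STSABs against LPS, coloured by call, with the median of each list as a line. In STSABs against LPS the HIF target lists lie mostly above 0, with medians of 0.53 and 0.67.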

How the data were processed

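Trizol RNA, per the labels' protocols, was selected with oligo(dT) and made into dUTP strand-marked paired-end libraries. The submitters' processing notes name HISAT2 and mm39. Which tool counted reads, and with what strand setting, is not given in the sources used here. Estimated counts, not normalized, are what the authors deposited. Of these 6.35% were not whole, none in the 8 genes. Estimated counts were rounded, filtered with filterByExpr and scaled by TMM. Group means over all 18 libraries were fitted with edgeR 4.0.16 (R 4.3.3), with Benjamini-Hochberg adjustment over 12465 genes. The SE was taken from the log2 fold change and its F statistic. DESeq2 1.42.0 and limma 3.58.1 were alternatives, with other scalings and filters, fewer groups, a replicate block and each library left out. The fit was also run on simulated data in which only a small set of genes changed. That setting meets the assumption of TMM, so it could not check the scaling against Con. Exon lengths came from GENCODE vM21. In that annotation, exons of Hif1a share 330 bases (5.6%) with an antisense gene and 148 (2.51%) with another gene on the same strand. Neither gene is in the table. Reads from the bases shared on the same strand cannot be told apart. Those of the antisense gene can be told apart only where counting used the strand, which is not known. The 8 genes and all lists were chosen with earlier results of these data known. Named genes were all 8, the 3 most alike per gene, and per list the 3 of lowest adjusted p in LPS against Con and in STSABs against LPS. Bnip3l and Gys1 fall under several parts of this rule. Elob, Eloc, Rbx1, Cd163, Mrc1 and Lyz2 were named outside it, after their values were seen. Deviations of same-numbered STSABs and UVABs libraries correlated at 0.116 to 0.54 (median 0.137), the highest being replicate 2. Different-numbered libraries of these groups correlated at -0.346 to 0.154 (median -0.012), so the ranges overlapped. Same-numbered libraries of the other pairs of groups correlated at -0.091 to 0.114. Pairing by number was not tested.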

Additional observations from a re-analysis of the deposited data

Results flagged for a closer look

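In 24 sets of 5 libraries (8 genes in LPS, STSABs and UVABs), the lowest or highest library was compared with its nearest neighbour, and chance marks about 1 in 20 such sets. STSABs replicate 3 had the lowest Epas1 level of its group, 0.24 CPM, with the next library at 0.409 CPM, a gap of 0.758 of the group's range. These levels rest on only 4 and 7 counts. UVABs replicate 4 had the lowest Egln3 level of its group, 66.0 CPM, with the next at 83.9 CPM, a gap of 0.743 of the range. That library was still above the 13.2 to 22.3 CPM of the LPS libraries.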

How the results depend on the processing

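For the 8 genes in 6 comparisons, 1438 values were computed under alternatives, of which 1388 kept direction and call, 14 lost the call, 10 gained it and 26 turned. Of those that turned, 9 were called before or after, all against Con. With upper-quartile scaling Arnt was at -0.17 in LPS and -0.002 in STSABs. With library totals Arnt was at -0.64 in LPS, -0.43 in STSABs and -0.41 in UVABs, Egln1 at -0.30 in STSABs and -0.32 in UVABs, and Hif1an at -0.18 in STSABs and -0.16 in UVABs. The other 17 were called neither before nor after. They were Egln2 in STSABs against LPS with replicates 1 to 3 only (0.013), and 16 values of UVABs against STSABs. There, without replicate 2 of both AB groups, Hif1a was at -0.032 and Egln2 at 0.014. With each library left out in turn, Hif1a ran from -0.036 to 0.11, Epas1 from -0.081 to 0.19, Egln1 from -0.041 to 0.017, Egln2 from -0.059 to 0.067, Egln3 from -0.17 to 0.01 and Hif1an from -0.032 to 0.073. The numbers of genes called stayed within 1.5 times in all 6 comparisons. In LPS against Con the share of calls of all genes that were higher went from 48.2% to 36% with upper-quartile scaling and 21.2% with library totals. With the replicate block, UVABs against STSABs still had 0 of the 8 genes called, and the block changed no call of these genes in any comparison. In a block fit of the AB groups alone, added after seeing the data, 0 genes of all were called. Leaving out each library in turn moved Egln1 between 1.90 and 2.00 in STSABs against LPS and Egln3 between 2.28 and 2.49. Epas1 could not be tested with the stricter filter, and its depth of 4 to 34 counts a library limits its precision.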
